A study of Mus musculus with 6 samples.

Results

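The genes described here encode the proteins of the cytosolic ribosome, the particle that translates messenger RNA in the cytoplasm. They are the rows of the deposited table whose symbol is Rpl or Rps followed by a number and at most a suffix of the letters a, x, y or l, together with Rplp0, Rplp1, Rplp2 and Rpsa, and pseudogenes are left out by this rule. It took 81 of the 14861 genes in the table, 49 of the large subunit and 32 of the small subunit. The table comes from inguinal white adipose tissue, the subcutaneous fat of the groin, of 3 Flox and 3 AdIGF1RKO mice. Both groups carry a floxed Igf1r gene, the gene of the insulin-like growth factor 1 receptor, in a cross of the lines B6;129-Igf1rtm2Arge/J and B6; FVB-Tg (Adipoq-Cre)1Evdr/J. In AdIGF1RKO mice the gene is cut by Cre recombinase under the adiponectin (Adipoq) promoter, which is active in adipocytes, and the Flox mice are floxed littermates. All mice had a chow diet for 24 weeks, with fat supplying 10% of its energy, and an overnight fast before the tissue was taken. The labels give neither sex nor age. The tissue also holds cells in which this Cre is not expressed.

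A ribosome has a small subunit, which reads the messenger, and a large subunit, which joins the amino acids, and most ribosomal proteins are needed in equal numbers. The messengers of these proteins are abundant and stable. They begin with a C followed by a run of C and T, the terminal oligopyrimidine or TOP tract, through which mTORC1 and the protein LARP1 control their translation. Insulin and insulin-like growth factor 1 act on mTORC1, and the S6 kinases below it phosphorylate the ribosomal protein S6. Messenger levels do not report translation itself.

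The bases around the annotated start are shown for members whose values are given below. They come from the RefSeq promoter table of build GRCm38.p6, which is not the GRCm39 build of the deposited data. That promoter table holds 60 of the 81 genes. Each line has 15 bases before the annotated start and 15 bases from it on, in the direction of transcription, with the longest run of C and T in capitals. Rps6 encodes the S6 kinase substrate, and Rps24, Rpl13a, Rps9, Rpl38 and Rplp2 were picked because their windows hold a long run of C and T. Rps3 and Rpl3l, the paralog made in muscle, are shown for contrast. The groups of Rps24, Rpl13a, Rps9 and Rps3 did not overlap. The other members without overlap and with a listed start (Rpl5, Rplp0, Rpl37, Rpl37a and Rps4x) have, like Rps3, a longest run of only 3 to 6 bases in this window. Rps24 and Rpl3l each have another listed start, not shown, with a longest run of 4.
Rps6, chr4:86857353-86857382, minus strand: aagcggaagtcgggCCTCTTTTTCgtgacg
Rps24, chr14:24490663-24490692, plus strand: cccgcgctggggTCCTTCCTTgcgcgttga
Rpl13a, chr7:45128731-45128760, minus strand: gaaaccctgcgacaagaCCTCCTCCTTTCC
Rps9, chr7:3704026-3704055, plus strand: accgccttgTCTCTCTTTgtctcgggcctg
Rpl38, chr11:114668565-114668594, plus strand: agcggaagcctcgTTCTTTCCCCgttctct
Rplp2, chr7:141447636-141447665, plus strand: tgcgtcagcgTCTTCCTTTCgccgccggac
Rps3, chr7:99483695-99483724, minus strand: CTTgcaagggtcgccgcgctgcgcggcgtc
Rpl3l, chr17:24727811-24727840, plus strand: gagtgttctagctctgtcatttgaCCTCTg

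In Rps6, Rps24, Rps9, Rpl38 and Rplp2 the run spans the annotated start, in Rpl13a and Rpl3l it lies downstream, and in Rps3 upstream. The base at the annotated start is C in Rps6, Rpl38 and Rplp2, T in Rps24 and Rps9, and G in Rpl13a. At these annotated starts the runs of Rps24, Rps9 and Rpl13a therefore do not meet the description of a tract above. A run of at least 8 C or T, sought on the transcribed strand in the 40 bases around an annotated start, was present in 29 of 60 ribosomal protein genes (48.3%) and in 19.7% of the 10165 tested genes with a listed start. The letters CTTTCC stood in the same 40 bases in 18.3% of the ribosomal protein genes and 2.38% of tested genes, and on the opposite strand in 0 of 60 and 2.01%. These runs and CTTTCC can overlap. The letters CCGGAAG, a core that ETS factors bind, were found on either strand of the 300-base promoter in 41.7% against 19.1%. Annotated starts can miss the start in use by some bases, so a gene without a match may still have a tract. The 29 genes with a run had a median log2 difference between AdIGF1RKO and Flox of -0.08, and so did the 31 without one.

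Between 60617147 and 70695527 reads per library fell on the genes of the table. Igf1r had 6.44, 6.47 and 5.86 scaled CPM in Flox, against 6.11, 5.27 and 4.85 in AdIGF1RKO, so the groups overlapped (log2 difference -0.18, limma adjusted p = 0.998). These reads cover the whole gene and all cells of the tissue, not the deleted part in adipocytes alone, so the level does not by itself check the genotype. Scaled CPM are reads divided by median-ratio size factors and expressed per 1000000 reads of a library of mean size. All 14 adipocyte markers were present, with a summed level of 52129 to 66643 scaled CPM in Flox, against 48389 to 55136 in AdIGF1RKO. Skeletal muscle markers (24 of 25 present) took 0.970%, 0.116% and 13.9% of reads in Flox 1, 2 and 3 and 0.0596%, 0.305% and 5.03% in AdIGF1RKO 1, 2 and 3. Flox 3 and AdIGF1RKO 3 therefore stand apart, and in bulk tissue fewer cells of a type cannot be told apart from less RNA per cell. Of 10 endothelial markers 9 had a positive difference, and their summed level was 587 to 654 scaled CPM in Flox, below 663 to 790.5 in AdIGF1RKO. The median differences of macrophage, lymphocyte, progenitor and Schwann cell markers were 0.17, 0.07, -0.06 and -0.11. Mammary epithelium had 1 of 8 markers in the table and erythroid cells 1 of 5. The part of these cells in the results below was not tested.

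The share of reads on ribosomal protein messengers overlapped between the groups. The 81 genes held 10.4%, 10.0% and 8.19% of the reads in Flox and 9.85%, 10.4% and 9.30% in AdIGF1RKO. The means were 9.54 ± 1.19% in Flox and 9.84 ± 0.535% in AdIGF1RKO (SD, n = 3). The lowest shares were those of the muscle-rich libraries Flox 3 and AdIGF1RKO 3. With the muscle markers taken out of the total, a step chosen after the shares were seen, the means were 10.02 ± 0.509% and 10.02 ± 0.337%. As summed scaled CPM the order of the means turned, with 99098 ± 3317 in Flox and 94251 ± 3898 in AdIGF1RKO. The Flox libraries then had 97876, 96566 and 102853 and the AdIGF1RKO libraries 90261, 98050 and 94442, and the groups overlapped.

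No ribosomal protein gene passed the limma test. All 81 were tested, and 0 had an adjusted p under 0.05, against 0% of all 12993 tested genes. At an unadjusted p under 0.05 there were also 0 of 81, where 2.96% of all tested genes lay. Under 0.1 there were 2 of 81, Rpl29 and Rpl5, against 6.55% of all tested genes. edgeR's quasi-likelihood test and DESeq2 called 0 of the 81 as well and had 0 at an unadjusted p under 0.05. DESeq2 called 0.178% of the genes it could adjust. The 95% limma interval lay within 0.5 log2 units of no difference for 73 of the 81 genes, and the median standard error was 0.10. Leaving Rpl3l aside, the log2 differences ranged from -0.23 (Rps29) to 0.45 (Rpl29).

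**Figure D1:**
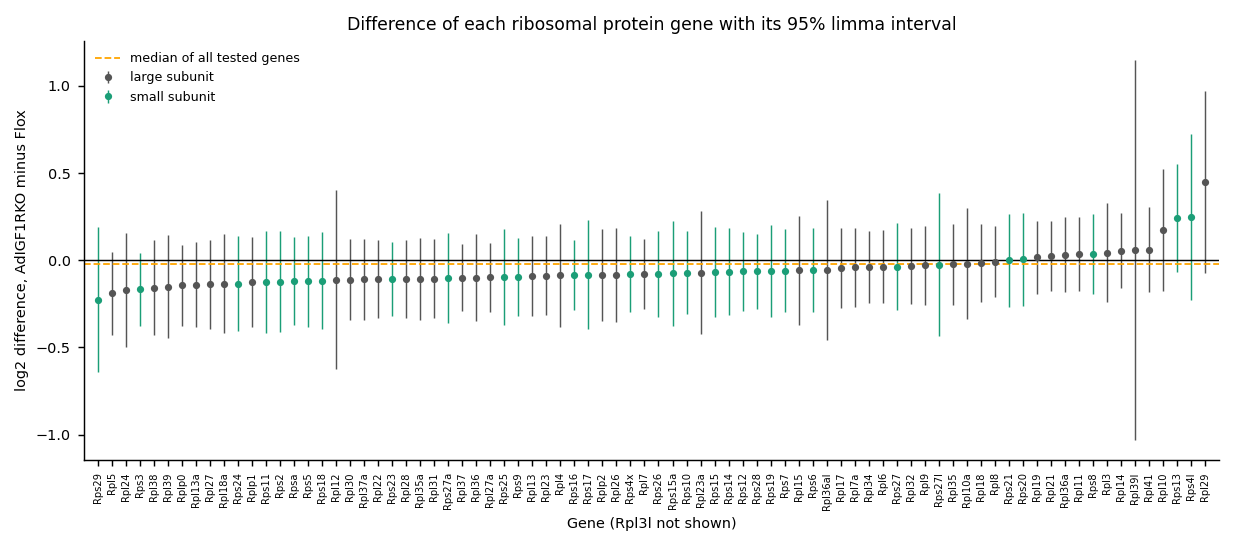
Log2 difference between AdIGF1RKO and Flox (vertical axis) for 80 ribosomal protein genes, ordered by size on the horizontal axis, with 95% limma intervals as bars; grey marks the large subunit, green the small subunit, and the dashed line the median of all tested genes at -0.02. Every interval crosses 0, and most points lie between -0.2 and 0.1.

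With median-ratio scaling 67 of the 81 differences were negative, where 55.2% of all tested genes were, and the median was -0.08 against -0.02 for all tested genes. The sign of this small difference follows the scaling: with the deposited values it was -0.24, after scaling to equal library sums 0.045, and after quantile normalization 0.023. Those scalings also moved the median of all tested genes, to -0.18, 0.09 and 0.01. Relative to all tested genes the ribosomal protein genes lay at -0.06 with median-ratio scaling, -0.05 with equal sums, -0.06 as deposited and 0.01 with quantile normalization. None of these is farther than 0.06 from 0, but leaving out single libraries with median-ratio scaling gave relative values from -0.09 to -0.03. With that scaling the median of the genes in single libraries varied between replicates with an SD of 0.06. This SD describes single libraries and is not the error of a difference between groups. Both subunits had a median of -0.08, with 39 of 49 large subunit genes and 28 of 32 small subunit genes negative.

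**Figure D2:**
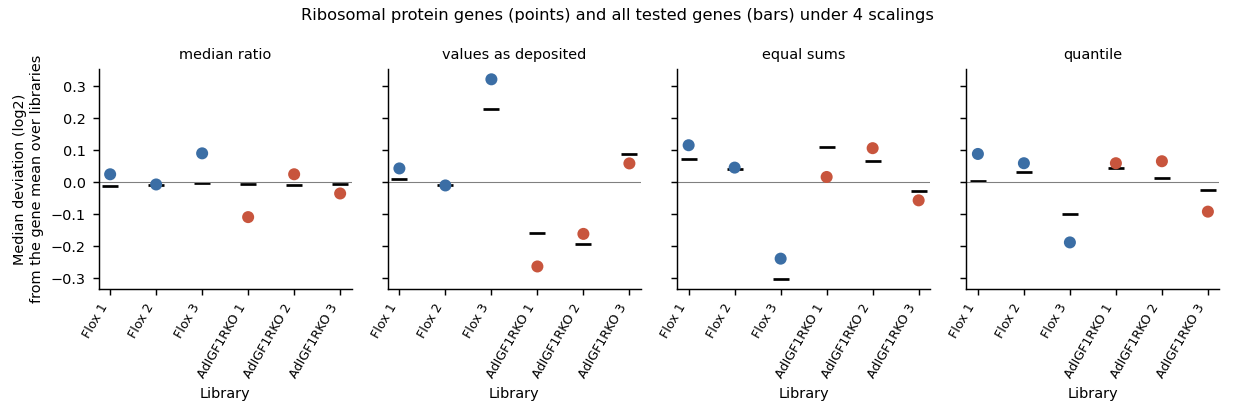
Median deviation of the ribosomal protein genes (points, blue Flox and red AdIGF1RKO) and of all tested genes (black bars) from each gene's mean over the 6 libraries, in log2 units, by library and under 4 scalings. Flox 3 is the highest library with the values as deposited (0.32) and the lowest with equal sums (-0.24), and with median-ratio scaling all 6 points lie between -0.11 and 0.09.

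The genes moved together from library to library by small amounts. With median-ratio scaling their median deviation was 0.02, -0.01 and 0.09 in Flox 1, 2 and 3 and -0.11, 0.02 and -0.04 in AdIGF1RKO 1, 2 and 3. AdIGF1RKO 1 was the lowest of the 6 libraries for 47 of the 81 genes (58.0%), against 18.1% of all tested genes. Flox 3 was the highest for 45 (55.6%), against 30.8% of all tested genes. These libraries have the least and the most muscle RNA, and the part of muscle in this order was not tested beyond the fits named here. With the muscle marker level as a covariate the median was -0.06, with 63 of 81 negative beside 54.2% of tested genes. Without Flox 3 and AdIGF1RKO 3 it was -0.05, with 51 of 81 negative where 50.8% of tested genes were.

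**Figure D3:**
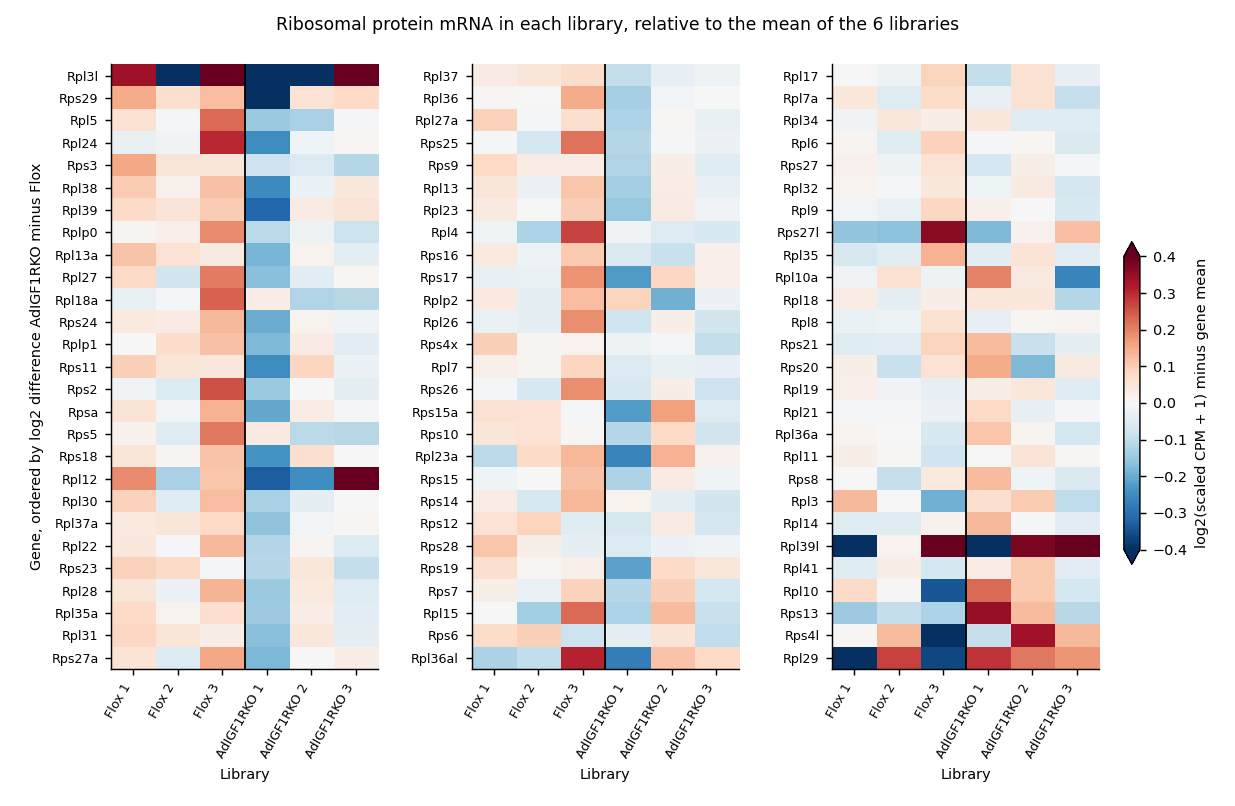
Each row is one of the 81 ribosomal protein genes, in order of log2 difference, and each column a library; color gives log2(scaled CPM + 1) minus the gene's mean over the libraries, with red above and blue below. AdIGF1RKO 1 is the lowest column for 47 genes, and Rpl3l, Rpl39l, Rpl29, Rps4l and Rpl12 are among the rows with the widest contrasts.

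For 11 of the 81 genes all 3 AdIGF1RKO libraries lay below all 3 Flox libraries, where 3.86% of all tested genes did so. For 0 of 81 they lay above, where 4.41% did, and in either direction 8.27% of all tested genes were without overlap. The 11, named after their values were seen, were Rpl5, Rps3, Rplp0, Rpl13a, Rpl37, Rps24, Rpl37a, Rps9, Rpl36, Rpl7 and Rps4x. The count of members lower without overlap depends on the scaling, and so does the share of all tested genes. With TMM factors, the scaling that edgeR uses, it was 12 beside 3.68% of all tested genes. With the deposited values it was 11 beside 11.5% of all tested genes, and after scaling to equal sums 0 beside 0.793%. After quantile normalization it was 1 beside 2.49%, and after scaling to equal sums of the reads outside the muscle markers it was 2 beside 1.39%.

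The stalk of the large subunit, which recruits elongation factors, is made of the products of Rplp0, Rplp1 and Rplp2 on a base that holds the Rpl12 protein. The differences of all 4 genes were below 0 (median -0.12), and 0 of 4 passed the test. Rplp0 had 979, 986 and 1108 scaled CPM in Flox, against 902, 959 and 916 in AdIGF1RKO. The groups did not overlap, but the highest AdIGF1RKO library was close to the lowest Flox library. The log2 difference of Rplp0 was -0.14 (standard error 0.10, limma adjusted p = 0.998), and -0.09 without Flox 3. Rplp1 had 2378, 2497 and 2580 in Flox and 2102, 2435 and 2303 in AdIGF1RKO, which overlapped. Rplp2 had 1006, 954 and 1067 in Flox and 1041, 858 and 964 in AdIGF1RKO, also with overlap. Rplp0 is often used as a reference gene, and here its 6 values had a coefficient of variation of 7.54%.

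The products of Rpl5 and Rpl11 form a particle with 5S RNA that also binds MDM2 when ribosome assembly fails. Rpl5 had 42.7, 40.7 and 47.9 scaled CPM in Flox, against 36.7, 37.2 and 40.6 in AdIGF1RKO. The highest AdIGF1RKO value of Rpl5 lay just under the lowest Flox value (log2 difference -0.19, standard error 0.10, adjusted p = 0.998 by limma), and without Flox 3 the difference was -0.12. Rpl11 had 1191, 1174 and 1108 in Flox and 1169, 1214 and 1175 in AdIGF1RKO. The Rpl11 groups overlapped, with a log2 difference of 0.03.

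Of the 8 genes for proteins that line the peptide tunnel or its exit, 7 had negative differences, with a median of -0.08, and 0 passed. Rpl39, which lies in the tunnel, had 729, 716 and 741 in Flox and 556, 708 and 717 in AdIGF1RKO. A single low library, AdIGF1RKO 1, stands apart there. The same library was lowest for Rpl38, a large subunit protein known for its part in translating Hox messengers in the embryo. Rpl38 had 1445, 1364 and 1461 in Flox and 1129, 1325 and 1388 in AdIGF1RKO, and the groups overlapped at a log2 difference of -0.16 (-0.07 without AdIGF1RKO 1).

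Other large subunit genes among the 10 members with the smallest p-values were Rpl13a, Rpl27 and Rpl24. Rpl13a, whose protein is also known as a repressor of inflammatory messengers after its release from the ribosome, had 1878, 1807 and 1781 in Flox and 1525, 1754 and 1689 in AdIGF1RKO, without overlap. Rpl27 had 446, 402 and 487 in Flox and 376, 410 and 425 in AdIGF1RKO. Rpl24, which forms a bridge to the small subunit, had 1127, 1141 and 1419 in Flox and 968, 1138 and 1158 in AdIGF1RKO. Both Rpl27 and Rpl24 overlapped, and Flox 3 was their highest library. The log2 differences of the 3 genes were -0.14, -0.14 and -0.17. Without AdIGF1RKO 1 they were -0.08, -0.09 and -0.09, and without Flox 3 those of Rpl27 and Rpl24 were -0.07 and -0.06. That of Rpl27 was -0.21 without Flox 2.

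In the head of the small subunit 13 of 14 genes were negative, with a median of -0.08, and 0 passed. Rps3, which lines the entry of the messenger channel, had 1140, 1058 and 1057 in Flox and 967, 984 and 946 in AdIGF1RKO, without overlap. Its log2 difference was -0.17 (standard error 0.09, limma adjusted p = 0.998, DESeq2 unadjusted p = 0.0584). Rps29 had 3018, 2848 and 2967 in Flox and 1960, 2833 and 2876 in AdIGF1RKO. Its most negative difference among the 80 genes besides Rpl3l came from AdIGF1RKO 1, and the other two AdIGF1RKO libraries lay beside Flox. The difference of Rps29 was -0.23, and -0.04 without AdIGF1RKO 1. Rps27a, which encodes ubiquitin fused to a ribosomal protein, had 1041, 965 and 1114 in Flox and 885, 1000.2 and 1021 in AdIGF1RKO.

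In the body and platform 14 of 16 genes were negative, with a median of -0.08. Rps6, the S6 kinase substrate, had 1217, 1234 and 1090 in Flox and 1125, 1200.4 and 1079 in AdIGF1RKO. The Rps6 groups overlapped (log2 difference -0.06, standard error 0.10). Rpsa, which is also described as a laminin receptor, had 929, 887 and 986 in Flox and 777, 912 and 891 in AdIGF1RKO, with overlap. Rps13 went the other way, with 432, 447 and 438 in Flox and 608, 521 and 442 in AdIGF1RKO. AdIGF1RKO 3 lay within the Flox range of Rps13, so the groups overlapped at a log2 difference of 0.24 (standard error 0.13). Without AdIGF1RKO 1 the difference of Rps13 was 0.13, and without AdIGF1RKO 3 it was 0.36.

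Rpl29, a large subunit protein that is not essential in mice, had the highest difference of the 81 genes. It had 263, 478 and 306.5 scaled CPM in Flox, against 482, 457 and 446 in AdIGF1RKO. The AdIGF1RKO libraries were close to each other, Flox 2 lay among them, and Flox 1 and Flox 3 lay well below. The means were 349 ± 113 in Flox and 462 ± 18.4 in AdIGF1RKO (SD, n = 3), with a log2 difference of 0.45 and a 95% interval from -0.07 to 0.97. The limma test gave an unadjusted p of 0.0814 and an adjusted p of 0.998. Without Flox 2 the log2 difference was 0.70 (limma adjusted p = 0.923), and without Flox 1 it was 0.27.

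**Figure D4:**
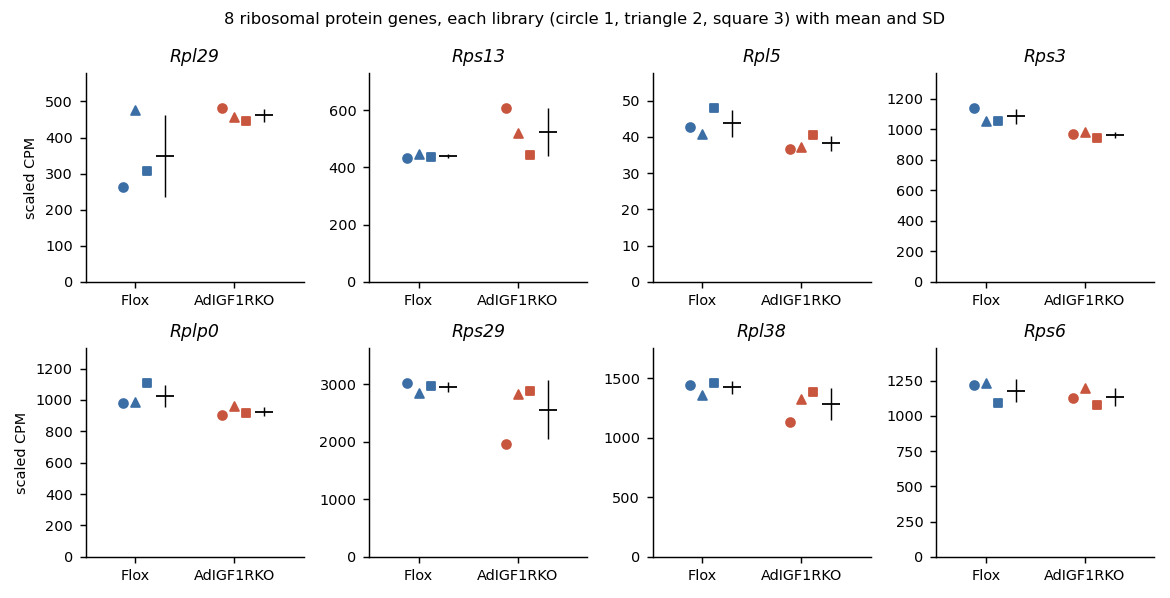
Scaled CPM (vertical axes, from 0) of 8 ribosomal protein genes in each library; circles, triangles and squares are replicates 1, 2 and 3, and the bar beside each group is its mean with the SD. Rpl29 splits the Flox libraries, AdIGF1RKO 1 is the lowest point of Rps29 and Rpl38 and the highest of Rps13, and Rps6 overlaps between groups.

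Most members varied little. The coefficient of variation over the 6 libraries had a median of 6.72% for the 81 genes and 13.8% for all tested genes. Among genes with a mean of at least 100 scaled CPM it was 6.18% for 76 ribosomal protein genes and 11.6% for 1617 tested genes. It was under 10% for 66 of the 81. Rpl8 had the lowest value, 2.46%, and the highest were 165% for Rpl3l, 42.4% for Rpl39l and 23.5% for Rpl29.

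Rpl3l had the widest spread and followed skeletal muscle RNA. Its protein takes the place of the Rpl3 protein in skeletal and heart muscle. Rpl3l had 19.9, 2.98 and 264 scaled CPM in Flox 1, 2 and 3 and 0.713, 5.49 and 81.7 in AdIGF1RKO 1, 2 and 3, from 55 reads in AdIGF1RKO 1 to 12740 in Flox 3. The order of the 6 libraries by Rpl3l was the same as by the muscle marker share, which describes 6 libraries that share these markers' source. Per 100000 reads of muscle markers there were between 130 and 266 Rpl3l reads in each library, a narrow range beside that of the levels. The log2 difference between the groups was -1.53 (standard error 1.90) and did not pass (limma adjusted p = 0.998). It was 0.09 without Flox 3, -0.28 without AdIGF1RKO 1, -2.94 without Flox 2 and -3.07 without AdIGF1RKO 3. Without both Flox 3 and AdIGF1RKO 3 it was -1.45. With the muscle marker level as a covariate it was -0.27 (limma unadjusted p = 0.0482, adjusted p = 0.9996).

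Rpl3 itself, which helps form the peptidyl transferase center, had 749, 683 and 600 scaled CPM in Flox, against 716, 735 and 638 in AdIGF1RKO. It was lowest in Flox 3 and AdIGF1RKO 3, the libraries richest in Rpl3l. Rpl3l made up 30.6% of the reads of both genes in Flox 3 and 11.3% in AdIGF1RKO 3, and at most 2.59% in the other 4 libraries.

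**Figure D5:**
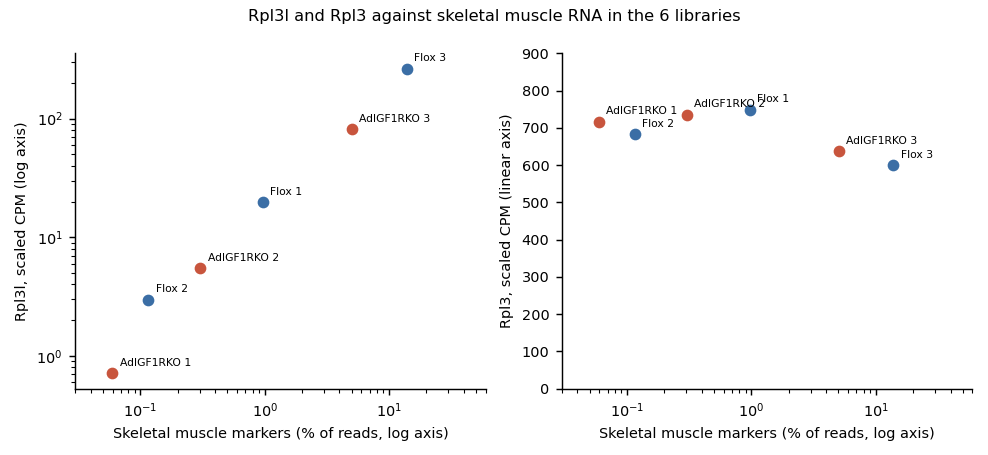
Rpl3l (left, log axis) and Rpl3 (right, linear axis from 0) in scaled CPM against the share of reads on skeletal muscle markers (percent, log axis), 1 point per library, blue Flox and red AdIGF1RKO. Rpl3l goes from 0.713 to 264 with the marker share, and Rpl3 is lowest, at 600, in Flox 3.

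The other paralogs spread less. Rps27l, a p53 target, had 393, 391 and 563 scaled CPM in Flox, against 388, 443 and 477 in AdIGF1RKO. Rpl36al had 499, 509 and 675 in Flox and 450, 590 and 575 in AdIGF1RKO. Both were highest in Flox 3 and overlapped between groups, while Rpl36a had 589, 584 and 560 in Flox and 630, 588 and 556 in AdIGF1RKO. Rpl39l had 4.89, 8.75 and 13.8 in Flox and 4.58, 11.6 and 12.7 in AdIGF1RKO. Rps4l had 35.4, 38.6 and 24.5 in Flox and 33.0, 44.7 and 38.7 in AdIGF1RKO, beside 1324 to 1511 for Rps4x. Rpl10, at the edge of the peptidyl transferase center, had 934, 888 and 698 in Flox and 1035, 952 and 844 in AdIGF1RKO. None of these passed the limma test (adjusted p = 0.998 each), and Rpl10l is not analysed here.

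Levels of different genes were compared per kilobase of 1 GENCODE M21 transcript each, for 80 of the 81 genes. The median was 1419 scaled CPM per kilobase. Rps27 was highest with 11347 in Flox and 11070 in AdIGF1RKO, followed by Rps29 and Rpl23a. Apart from the paralogs Rpl39l and Rpl3l, the lowest were Rpl5, with 21.4 in Flox and 18.7 in AdIGF1RKO, and Rpl12, with 26.9 and 25.5. Rpl11, the partner of Rpl5, had 1390 and 1424. Ribosomal protein genes have many near-identical copies: GENCODE M21 names at least 1 pseudogene after 59 of the genes, 291 in all. How the authors assigned reads shared with such copies is not given, so the order of levels is uncertain. Rps27 shares a stretch of 341 of its 345 bases with the copy Rps27rt, so their reads cannot be told apart with confidence. The longest stretch shared by Rpl3 and Rpl3l was 22 bases and by Rpl36a and Rpl36al 24 bases.

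Other genes of protein synthesis were read out from fixed lists, and 0 of them passed the limma test. Among ribosomal proteins outside the rule, Fau, Rps3a1 and Rack1 and the paralogs Rpl22l1 and Rpl7l1 had log2 differences from -0.10 (Rps3a1) to -0.03 (Fau). Rps3a1 had 1592 ± 64.5 scaled CPM in Flox, against 1485 ± 44.8 in AdIGF1RKO. Of 78 mitochondrial ribosomal protein genes 57 were negative, with a median of -0.06, and 0 were under an unadjusted p of 0.05. Their median deviation was 0.26 in Flox 3, where that of the cytosolic genes was 0.09. Mrpl38 had 62.9 ± 3.40 in Flox and 54.6 ± 3.90 in AdIGF1RKO.

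Elongation factors (8 of 11 negative, median -0.10) and initiation factors (21 of 36 negative, median -0.03) had 0 and 1 genes under an unadjusted p of 0.05. The differences of the elongation factors ranged from -1.63 to 0.20, and those of the skeletal muscle markers from -1.76 to -0.36 (median -1.38). The part of muscle RNA in the range of the elongation factors was not tested. The gene among the initiation factors was Eif1a, with 40.3 ± 3.29 in Flox and 50.9 ± 4.54 in AdIGF1RKO (log2 difference 0.33). Ribosome biogenesis genes were evenly split, with 25 of 50 negative and a median of 0.00. Nop58, a core protein of the particles that methylate ribosomal RNA, had 30.5 ± 1.46 in Flox and 35.9 ± 1.31 in AdIGF1RKO, without overlap. Of the 16 genes of S6 kinase and TOP messenger control 11 were negative, with a median of -0.04 and 0 under an unadjusted p of 0.05. Of 8 TOP-type transcripts, most of them hosts of small nucleolar RNAs, 4 were negative and 4 positive, with a median of -0.05. Snhg12 had 43.8 in Flox and 48.7 in AdIGF1RKO (log2 difference 0.12), and Snhg5 had 71.5 ± 2.41 in Flox and 51.8 ± 12.3 in AdIGF1RKO. The Snhg5 groups did not overlap (log2 difference -0.48, limma adjusted p = 0.998).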

How the data were processed

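Polyadenylated RNA was sequenced with a stranded kit, per the labels' protocols, and the submitters' processing notes name build GRCm39; aligner, counter, annotation and filter: not given in the sources used here. A single table called FPKM was deposited by the authors. Its signal values, as deposited, were in each library whole reads times 1000000000 over 1 divisor (100% of values, tolerance 0.5), without division by gene length. From them reads were recovered and divided by median-ratio size factors (0.728 to 1.16), and a single read is worth 0.0130 to 0.0207 scaled CPM.

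Tested were the 12993 genes whose mean reached 1 scaled CPM (1868 left out), by limma 3.58.1 (R 4.3.3, trend on) of log2(value + 1), two-sided, Benjamini-Hochberg adjusted, threshold 0.05. Log2 differences are on this scale, which understates changes of low genes. edgeR 4.0.16 and DESeq2 1.42.0 were run on the recovered reads. Scripts were tested on simulated data. An exact permutation test of 3 against 3 cannot go below 0.1. Labels speak of mice but do not name them, so p-values measure the spread between these samples.

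Named genes were Igf1r, a fixed set of members and paralogs, the 10 members with the smallest p, the 3 largest differences each way and the 3 most variable members, and up to 4 genes by p in each other list. Members and lists were chosen with earlier results of these data known. The deviations of same-numbered libraries had correlations over genes of 0.35, 0.35 and 0.83 for numbers 1, 2 and 3. A fit with the replicate number as a block was therefore also made. Flox 1 correlated about as much with AdIGF1RKO 2 (0.33), and Flox 2 more with AdIGF1RKO 1 (0.70). The values thus do not set the pairs of numbers 1 and 2 apart, and number 3 holds the muscle-rich libraries. One gene of the fixed lists is not reported here.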

Additional observations from a re-analysis of the deposited data

How the results depend on the processing

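Ribosomal protein genes called numbered 0 under every one of the 22 alternatives run, and Igf1r did not pass under any. Over all genes limma called 0, DESeq2 called 23, and leaving out single replicates gave 0 to 1. With the replicate block 0 genes were called. In this balanced design the block cannot change a log2 difference, so the median of -0.08 was fixed and only p-values could move. The median log2 difference was -0.24 with the values as deposited, 0.045 with equal sums, 0.023 with quantile normalization and -0.0058 with equal sums of the reads outside the muscle markers, an alternative added after seeing the data. Beside the share of all tested genes, negative differences numbered 14 with equal sums (27.7%), 30 with quantile normalization (46.1%) and 43 with equal sums outside the muscle markers (37.7%), and genes without overlap in either direction 0 (6.66%), 1 (7.15%) and 2 (7.79%). Leaving out single replicates gave medians from -0.11 to -0.04, 58 to 68 negative genes and 12 to 31 without overlap: 12 without Flox 1 (15.7% of all tested genes), 31 without Flox 2 (17.3%), 17 without Flox 3 (18.6%), 15 without AdIGF1RKO 1 (19.0%), 29 without AdIGF1RKO 2 (13.3%) and 21 without AdIGF1RKO 3 (18.4%). Lower in AdIGF1RKO were 12, 28 and 16 without Flox 1, 2 and 3, beside 7.54%, 7.70% and 9.26% of all tested genes. Without AdIGF1RKO 1, 2 and 3 there were 14, 29 and 16 lower, beside 10.2%, 6.66% and 8.80%. Higher were 0, 3 and 1 (8.13%, 9.60% and 9.30%) and 1, 0 and 5 (8.86%, 6.63% and 9.57%), in the same order. Leaving out both muscle-rich libraries gave 29 (30.3%), with 21 lower (15%) and 8 higher (15.3%). Igf1r had -0.38 as deposited and -0.26 to -0.12 without single replicates. For 27 single genes, 548 of 594 values moved by less than the spread between replicates and 46 by more. All 46 came with other scalings: the values as deposited, equal sums, quantile normalization or equal sums outside the muscle markers. Why these genes moved and others did not was not tested. The changed filters and the replicate block cannot move a log2 difference, so their values count among the 548 by construction. Every member had at least 55 reads in each library, and the median standard error was 0.10.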

Other observations

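Some genes outside the rule, with symbols close to those of members, are named after their values were seen. Among the genes of this paragraph, the stretch shared with the member was measured only for Rps27rt. Rps27rt, the near-identical copy of Rps27, had 252, 212 and 339 scaled CPM in Flox and 143, 215 and 216 in AdIGF1RKO, while Rps27 had 3916, 3813 and 4015 in Flox and 3680, 3927 and 3850.1 in AdIGF1RKO. Rpl37rt had 457, 374 and 506 in Flox and 284, 457 and 478 in AdIGF1RKO. Of the reads of Rpl37 and Rpl37rt together, Rpl37 held 63.5% in AdIGF1RKO 1 and 52.0% to 59.3% in the other libraries. Whether the lack of overlap of Rpl37 depends on how reads were assigned between them was not tested. AdIGF1RKO 1 was the lowest library for both Rps27rt and Rpl37rt, and the groups overlapped for each. Rps12l1 had 79.4, 145 and 70.5 in Flox and 127, 140 and 87.0 in AdIGF1RKO, so that Flox 1 and Flox 3 were its lowest libraries, as they were for Rpl29.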
